A study of Homo sapiens with 18 samples.

Results

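The mitochondrial ribosomal protein genes were followed through 18 RNA sequencing libraries of MDA-MB-231, a human breast cancer line of the triple-negative kind. They were taken as every protein-coding row of the gene table whose symbol is MRPL or MRPS followed by a digit, which gave 78 of 62830 rows. The libraries formed 6 groups of 3: TRIM27 knockout cells after 2 µM olaparib for 24 h, knockout cells after an siRNA against PARP1 (siPARP1, labelled 100 pM, 48 h), untreated knockout cells, and TRIM27 wild-type cells under the same 3 conditions. TRIM27 is a tripartite motif protein that attaches ubiquitin to others, and the design places it with PARP1, a DNA repair enzyme that olaparib inhibits, in cancer invasion and metastasis. The labels say neither how many knockout clones were used nor that the libraries of a group were separate cultures, so the p-values measure the spread between these libraries, which may be technical. No library was labelled as vehicle or non-targeting siRNA, so the untreated cells of the same genotype were the only control for both treatments.

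Mitochondria have their own ribosome, the mitoribosome, which translates only the few proteins that mitochondrial DNA encodes, all of them core subunits of the respiratory chain and ATP synthase. Its ribosomal RNAs are transcribed inside the organelle, but every one of its proteins is encoded in the nucleus, made in the cytosol and imported. The large subunit holds the peptidyl transferase centre and the exit tunnel, and the small subunit holds the decoding site. Some of the proteins descend from the bacterial ribosome and others were added in the course of mitochondrial evolution.

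Of the 78 genes, 49 had MRPL symbols and 29 had MRPS symbols. By the place of the protein in the human mitoribosome, 51 belonged to the large subunit, among them MRPS30 and MRPS18A, and 26 to the small subunit. MRPS36 belonged to neither, since its product is now known as a subunit of the oxoglutarate dehydrogenase complex. A bacterial relative was known for 47 of the proteins and none for 30. The genes were spread over 21 chromosomes, with 8 each on chromosomes 1, 2 and 17.

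The deposited values were FPKM, fragments scaled by transcript length and library total, which makes each gene a share of its library. Depth could be set only relative to wild-type library 1, from the steps between low values. It ran from 0.821 to 1.08 times in olaparib-treated knockout libraries and from 0.939 to 1.24 times in olaparib-treated wild-type libraries. It was 0.821 to 0.857 times in siPARP1 knockout and 0.749 to 0.813 times in siPARP1 wild-type libraries, against 0.765 to 0.959 times in untreated knockout and 0.827 to 1.04 times in untreated wild-type libraries. TRIM27 RNA was lower but still present in knockout cells, with 0.623 ± 0.0663 FPKM against 1.45 ± 0.243 FPKM in wild-type cells (SD, n = 3). PARP1 fell to 9.25 ± 0.472 FPKM under siPARP1 in knockout cells, against 55.2 ± 3.70 FPKM untreated, and to 10.7 ± 0.883 FPKM in wild-type cells, against 56.2 ± 2.57 FPKM untreated. PARP1 RNA was also lower under olaparib, at 40.1 ± 1.23 FPKM in knockout and 38.8 ± 2.74 FPKM in wild-type cells. TRIM27 RNA was higher under siPARP1, at 0.990 ± 0.0480 FPKM in knockout and 1.95 ± 0.437 FPKM in wild-type cells. Its wild-type siPARP1 libraries overlapped with the untreated ones. The keratins KRT8, KRT18 and KRT19 and vimentin were high in every library, from 141.4 FPKM upward. The label calls the cells epithelial, yet the epithelial adhesion genes EPCAM and CDH1 did not pass 0.31 FPKM and 0.097 FPKM. Of the marker lists of other cell types, the endothelial PECAM1 and CDH5, the leukocyte CD3E and PTPRC, the fibroblast DCN and the luminal PGR stayed at or near 0, with CD3E listed at 0 in every library. CD68 of the leukocyte list ran from 4.03 to 24.1 FPKM, COL1A1 of the fibroblast list from 3.13 to 11.2 FPKM and GATA3 of the luminal list from 13.02 to 31.6 FPKM, and the part of other cells in the results was not tested.

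All 78 genes reached at least 1 FPKM in at least 3 libraries, the filter that left 15764 genes for testing. Their mean levels had a median of 26.9 FPKM, against 8.21 FPKM over all tested genes, and 72 of them averaged 10 FPKM or more. MRPL33 stood highest with a mean of 161.7 FPKM, ahead of MRPL51 at 127 FPKM, MRPL12 at 67.5 FPKM, MRPL15 at 66.0 FPKM and MRPL37 at 65.4 FPKM. MRPL33 is a small large-subunit protein with a bacterial relative, MRPL51 and MRPL37 are large-subunit proteins without one, and MRPL12 forms the flexible stalk that takes part in recruiting translation factors. The lowest means belonged to MRPS18B at 2.14 FPKM, MRPL57 at 4.96 FPKM and MRPS25 at 7.05 FPKM. In every library 77 of the genes were at 1 FPKM or more. The exception was MRPS18B, at 0.090 FPKM in olaparib-treated knockout library 1 and at 2.16 and 2.57 FPKM in the other libraries of that group.

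Summed over the 78 genes, the libraries of treated cells lay above the untreated libraries in both genotypes. The sums were 2630.5, 2784 and 2611 FPKM in olaparib-treated knockout libraries and 2575, 2625 and 2568 FPKM in siPARP1 knockout libraries, against 2156, 2217 and 2168 FPKM in untreated knockout libraries. In wild-type cells they were 2646, 2682 and 2618 FPKM under olaparib and 2724, 2786 and 2794 FPKM under siPARP1, against 2228, 2355 and 2171 FPKM untreated. No treated library overlapped with an untreated library of its genotype. As a part of the FPKM of annotated nuclear genes, the mean was 0.781% under olaparib and 0.750% under siPARP1 in knockout cells, against 0.634% untreated. The corresponding wild-type means were 0.775%, 0.782% and 0.655%. From bulk RNA, a change in the number of cells that express a gene and a change in RNA per cell cannot be told apart, and a gain of these transcripts cannot be told apart from a loss of other RNA.

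**Figure D1:**
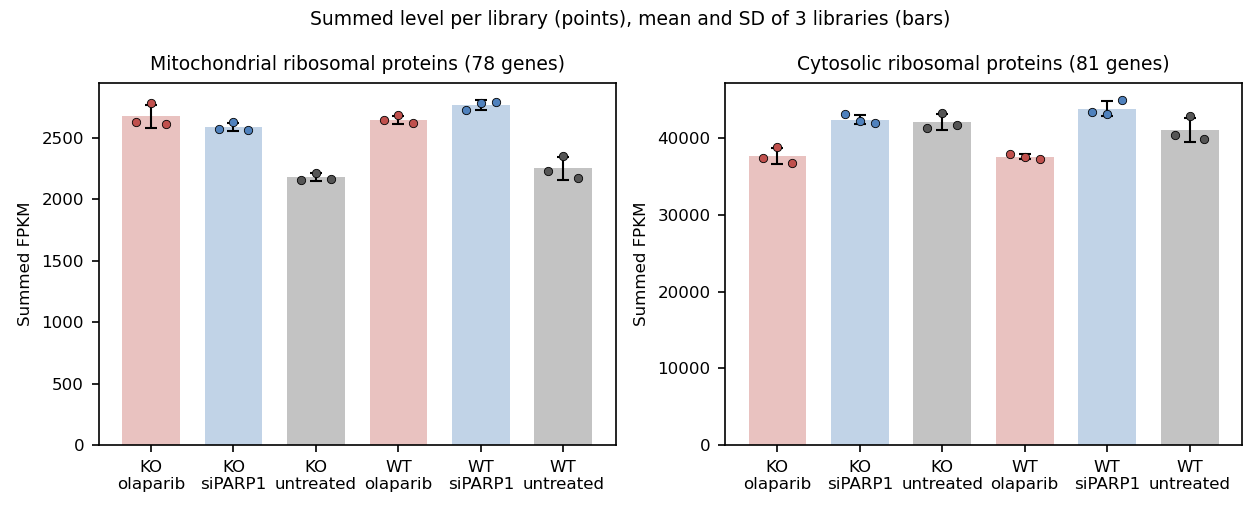
Summed FPKM of the 78 mitochondrial ribosomal protein genes in each library, by group, with the mean of each group and its SD (n = 3). All treated libraries, from 2568 to 2794 FPKM, lie above the 6 untreated libraries, from 2156 to 2355 FPKM.

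The summed level of the cytosolic ribosomal protein genes moved differently. It averaged 37664 FPKM in olaparib-treated and 42405 FPKM in siPARP1 knockout cells, against 42102 FPKM in untreated knockout cells, and 37588 FPKM and 43811 FPKM in the same treatments of wild-type cells, against 41017 FPKM untreated. Transcripts of the mitochondrial genome took 24.5% of the FPKM of annotated genes in olaparib-treated and 27.6% in siPARP1 knockout cells, against 19.7% in untreated knockout cells. In wild-type cells the shares were 24.8% and 25.8%, against 21.2% untreated. Loci without a name held 45.1% and 43.9% of all FPKM in olaparib-treated and siPARP1 knockout cells, against 48.75% in untreated knockout cells, and 46.8% and 45.4%, against 49.3%, in wild-type cells. The part of these shifts in the results that follow was not tested beyond rescaling, and with FPKM rescaled to annotated nuclear genes 42 of the 78 genes were called higher under olaparib and 40 under siPARP1 in knockout cells, and 32 and 38 in wild-type cells. The shares of all tested genes called higher with this scaling were 25.6% and 31.6% in knockout and 25.4% and 26.7% in wild-type cells.

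Promoter sequences of 69 of the 78 genes were found in RefSeq, as the 250 bases before and 50 bases after each gene's start on GRCh38.p14. The ETS core CCGGAAG, read on both strands, occurred in 29 of them (42.0%), against 14.2% of 15843 promoters of coding genes, and the YY1 motif AAGATGGCG in 13 (18.8%), against 2.74%. At least 1 of these motifs occurred in 38. The core TGCGCATGC of the NRF1 motif occurred in 5 (7.25%), against 2.09%. Of these, MRPS18C also held the ETS core, and MRPL22, MRPL32 and MRPS18B the YY1 motif. The SP1 box GGGCGG (60.9% against 58.5%), the E-box CACGTG (8.70% against 8.88%) and CCAAT (28.99% against 36.4%) lay closer to the share of all promoters, and the CRE TGACGTCA occurred in none, against 2.59%. A match describes letters in this window and shows no binding. Upstream bases are given for the 4 genes whose changes are described most closely: MRPS6, the gene with the largest rise; MRPL33, which rose under olaparib and fell under siPARP1; and MRPS10 and MRPS18A, neighbours in the same 10 Mb of chromosome 6. Each run is the 250 bases before the RefSeq start, 5′ to 3′ on the gene's strand, with ETS cores in capitals.

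MRPS6 (chr21:34073328-34073577, plus strand): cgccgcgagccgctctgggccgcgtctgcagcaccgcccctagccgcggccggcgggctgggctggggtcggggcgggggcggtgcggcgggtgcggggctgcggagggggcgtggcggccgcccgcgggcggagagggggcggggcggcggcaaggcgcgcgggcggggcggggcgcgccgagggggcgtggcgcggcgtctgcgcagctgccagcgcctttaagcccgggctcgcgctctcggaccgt

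MRPL33 (chr2:27771469-27771718, plus strand): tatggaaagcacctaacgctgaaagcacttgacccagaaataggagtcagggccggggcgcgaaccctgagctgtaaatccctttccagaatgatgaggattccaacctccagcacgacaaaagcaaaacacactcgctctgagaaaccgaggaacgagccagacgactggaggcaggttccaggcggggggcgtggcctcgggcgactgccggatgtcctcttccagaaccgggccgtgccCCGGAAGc

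MRPS10 (chr6:42217862-42218111, minus strand): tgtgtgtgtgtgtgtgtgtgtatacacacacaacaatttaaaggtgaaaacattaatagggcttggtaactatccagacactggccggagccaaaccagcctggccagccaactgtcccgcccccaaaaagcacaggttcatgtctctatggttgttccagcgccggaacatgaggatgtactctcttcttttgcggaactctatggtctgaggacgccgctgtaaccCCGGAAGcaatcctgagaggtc

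MRPS18A (chr6:43687792-43688041, minus strand): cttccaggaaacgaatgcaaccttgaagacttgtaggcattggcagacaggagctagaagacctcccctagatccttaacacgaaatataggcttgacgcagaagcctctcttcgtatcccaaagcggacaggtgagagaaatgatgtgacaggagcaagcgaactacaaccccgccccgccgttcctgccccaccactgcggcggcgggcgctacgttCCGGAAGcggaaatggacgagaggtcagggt

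The printed MRPS6 bases held none of the ETS, YY1 and NRF1 motifs. These bases precede the RefSeq start but lie inside the gene as placed by GENCODE 29, which starts it further upstream. The reading for MRPS6 thus holds for the RefSeq start alone. The ETS core began at base -8 relative to the start in MRPL33, at -22 in MRPS10 and at -31 in MRPS18A. MRPS10 and MRPS18A also held the YY1 motif, beginning at base 9 after the start. A coding gene that begins within 1000 bases on the opposite strand was annotated for 29 of the 78 genes (37.2%), against 12.96% of 19862 coding genes. In 1 such pair both genes were mitoribosomal, as the starts of MRPS11 and MRPL46 lie 34 bases apart.

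Olaparib raised more of the mitochondrial ribosomal protein genes than it lowered, in both genotypes. A gene is called higher or lower here where limma, fitted to log2(FPKM + 1) of all 6 groups, gave an adjusted p under 0.05 over all tested genes. In knockout cells 42 of 78 genes (53.8%) were higher and 5 lower, against backgrounds of 25.2% and 22% of all tested genes. In wild-type cells 31 (39.7%) were higher and 5 lower, against backgrounds of 24.9% and 20.4%. The median log2 change was 0.21 in knockout and 0.18 in wild-type cells, against 0.033 and 0.03 over all tested genes. Of the large-subunit genes 26 of 51 were higher in knockout and 21 in wild-type cells, and of the small-subunit genes 16 and 10 of 26. The genotypes share no libraries, and 30 genes were higher in both, which is 71.4% of those higher in knockout and 96.8% of those higher in wild-type cells. Of all tested genes 2917 were higher in both, which is 73.4% of those higher in knockout and 74.2% of those higher in wild-type cells. The changes called higher ran from 0.15 to 1.57 on the log2 scale in knockout cells and from 0.16 to 1.15 in wild-type cells.

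MRPS6, a small-subunit protein with a bacterial relative (ENSG00000243927, GRCh38 chromosome 21, 34073224 to 34143034, plus strand), changed most. It measured 70.4, 68.1 and 69.7 FPKM in olaparib-treated knockout libraries, against 24.5, 24.5 and 19.5 FPKM in untreated knockout libraries. In wild-type cells it measured 61.02, 56.9 and 58.9 FPKM under olaparib, against 28.7, 24.7 and 25.01 FPKM untreated. All treated libraries lay far above all untreated ones. The mean in knockout cells was 3.04 times that without treatment, a log2 change of 1.57 (SE 0.082, limma adjusted p = 1.54e-09), and in wild-type cells 2.25 times, a log2 change of 1.15 (SE 0.082, limma adjusted p = 4.9e-08). SLC5A3, a myo-inositol transporter gene that overlaps MRPS6 on the same strand, fell under olaparib by 0.26 on the log2 scale in knockout cells (adjusted p = 0.000353) and by 0.12 in wild-type cells (adjusted p = 0.0408).

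MRPS28, another small-subunit protein with a bacterial relative, reached 51.7, 57.3 and 51.4 FPKM in olaparib-treated knockout libraries, against 26.4, 22.9 and 30.3 FPKM untreated, a log2 change of 0.99 (SE 0.13, limma adjusted p = 1.55e-05). In wild-type libraries it reached 39.7, 44.1 and 46.4 FPKM, against 25.4, 21.2 and 22.9 FPKM, a log2 change of 0.88 (SE 0.13, limma adjusted p = 5.1e-05). The groups did not overlap in either genotype. MRPL39, a large-subunit protein without a bacterial relative, measured 60.5, 61.9 and 59.9 FPKM in treated and 36.9, 38.2 and 37.3 FPKM in untreated knockout libraries. In wild-type cells it measured 53.8, 57.4 and 53.5 FPKM under olaparib and 34.6, 37.6 and 34.1 FPKM untreated. Its log2 change was 0.68 (SE 0.053, limma adjusted p = 1.08e-07) in knockout and 0.62 (SE 0.053, limma adjusted p = 3.3e-07) in wild-type cells.

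MRPL33, the most abundant of these transcripts, rose to 234, 245 and 224 FPKM in olaparib-treated knockout libraries, against 153, 159.9 and 159 FPKM untreated (log2 0.57, SE 0.057, limma adjusted p = 1.44e-06). In wild-type libraries it rose to 193, 216 and 201 FPKM, against 123, 129.9 and 125 FPKM untreated (log2 0.69, SE 0.057, limma adjusted p = 2.15e-07). BABAM2, which overlaps MRPL33 on the same strand, had a log2 change of -0.18 (SE 0.075, adjusted p = 0.0625) in knockout cells, which did not pass, and of -0.43 (SE 0.075, adjusted p = 0.000292) in wild-type cells, where it fell. MRPL51 rose in knockout cells to 116, 128 and 122 FPKM, against 85.6, 72.4 and 67.8 FPKM untreated (log2 0.69, SE 0.1, limma adjusted p = 6.3e-05), and by a log2 of 0.50 (SE 0.1, adjusted p = 0.00115) in wild-type cells. NCAPD2, a condensin subunit gene that overlaps MRPL51 on the opposite strand, fell by 0.77 on the log2 scale in knockout and by 0.90 in wild-type cells.

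MRPL48, a large-subunit protein without a bacterial relative, measured 13.9, 15.6 and 13.5 FPKM in olaparib-treated knockout libraries, against 6.59, 6.81 and 8.71 FPKM untreated (log2 0.88, SE 0.15, limma adjusted p = 0.00019), and rose by a log2 of 0.40 (SE 0.15, adjusted p = 0.0372) in wild-type cells. MRPL27, a large-subunit protein with a bacterial relative, measured 43.4, 77.5 and 48.7 FPKM in treated and 29.6, 36.6 and 33.1 FPKM in untreated knockout libraries (log2 0.71, SE 0.21, limma adjusted p = 0.0111). Library 2 of the treated group stood above the other pair, and without it the adjusted p for MRPL27 was 0.0591. In wild-type cells the log2 change of MRPL27 was 0.11 and did not pass. MRPL28 measured 39.7, 34.5 and 31.3 FPKM in olaparib-treated wild-type libraries, against 22.4, 27.2 and 23.3 FPKM untreated (log2 0.51, SE 0.18, limma adjusted p = 0.0329). The MRPL28 call was lost without untreated library 1 or 3 or treated library 1 or 2, with an adjusted p of 0.0653 to 0.117.

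A few genes fell under olaparib. MRPL24, MRPL30 and MRPL32, all large-subunit proteins with bacterial relatives, were lower in both genotypes, which is 60% of the 5 genes lower in each. Of all tested genes 2477 were lower in both, which is 71.4% of those lower in knockout and 76.9% of those lower in wild-type cells. MRPL30 measured 8.20, 12.04 and 11.5 FPKM in treated knockout libraries, against 16.2, 14.3 and 14.4 FPKM untreated (log2 -0.48, SE 0.17, limma adjusted p = 0.0289), and 9.47, 10.8 and 9.60 FPKM in treated wild-type libraries, against 19.6, 13.8 and 19.5 FPKM (log2 -0.75, SE 0.17, limma adjusted p = 0.00204). In knockout cells the MRPL30 call was lost without untreated library 1 or 3 or treated library 1 (adjusted p 0.0509 to 0.142). The log2 change was -0.27 (SE 0.06, adjusted p = 0.00186) in knockout and -0.21 (SE 0.06, adjusted p = 0.00915) in wild-type cells for MRPL24. For MRPL32 it was -0.20 (SE 0.052, adjusted p = 0.00629) and -0.23 (SE 0.052, adjusted p = 0.00231). The other genes called lower were MRPS31 and MRPS27 in knockout cells and MRPL3 and MRPS2 in wild-type cells. MRPS31 measured 11.7 ± 0.452 FPKM in treated and 14.5 ± 0.798 FPKM in untreated knockout cells (SD, n = 3), while the MRPS27 libraries of the groups overlapped. MRPL3, which lies near the peptidyl transferase centre, measured 46.9 ± 1.83 FPKM in treated and 58.7 ± 3.11 FPKM in untreated wild-type cells. Its call was lost on leaving out any 1 of the 6 libraries (adjusted p 0.0524 to 0.1205), and that of MRPS2 on leaving out any but treated library 2 (adjusted p 0.0646 to 0.139).

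**Figure D2:**
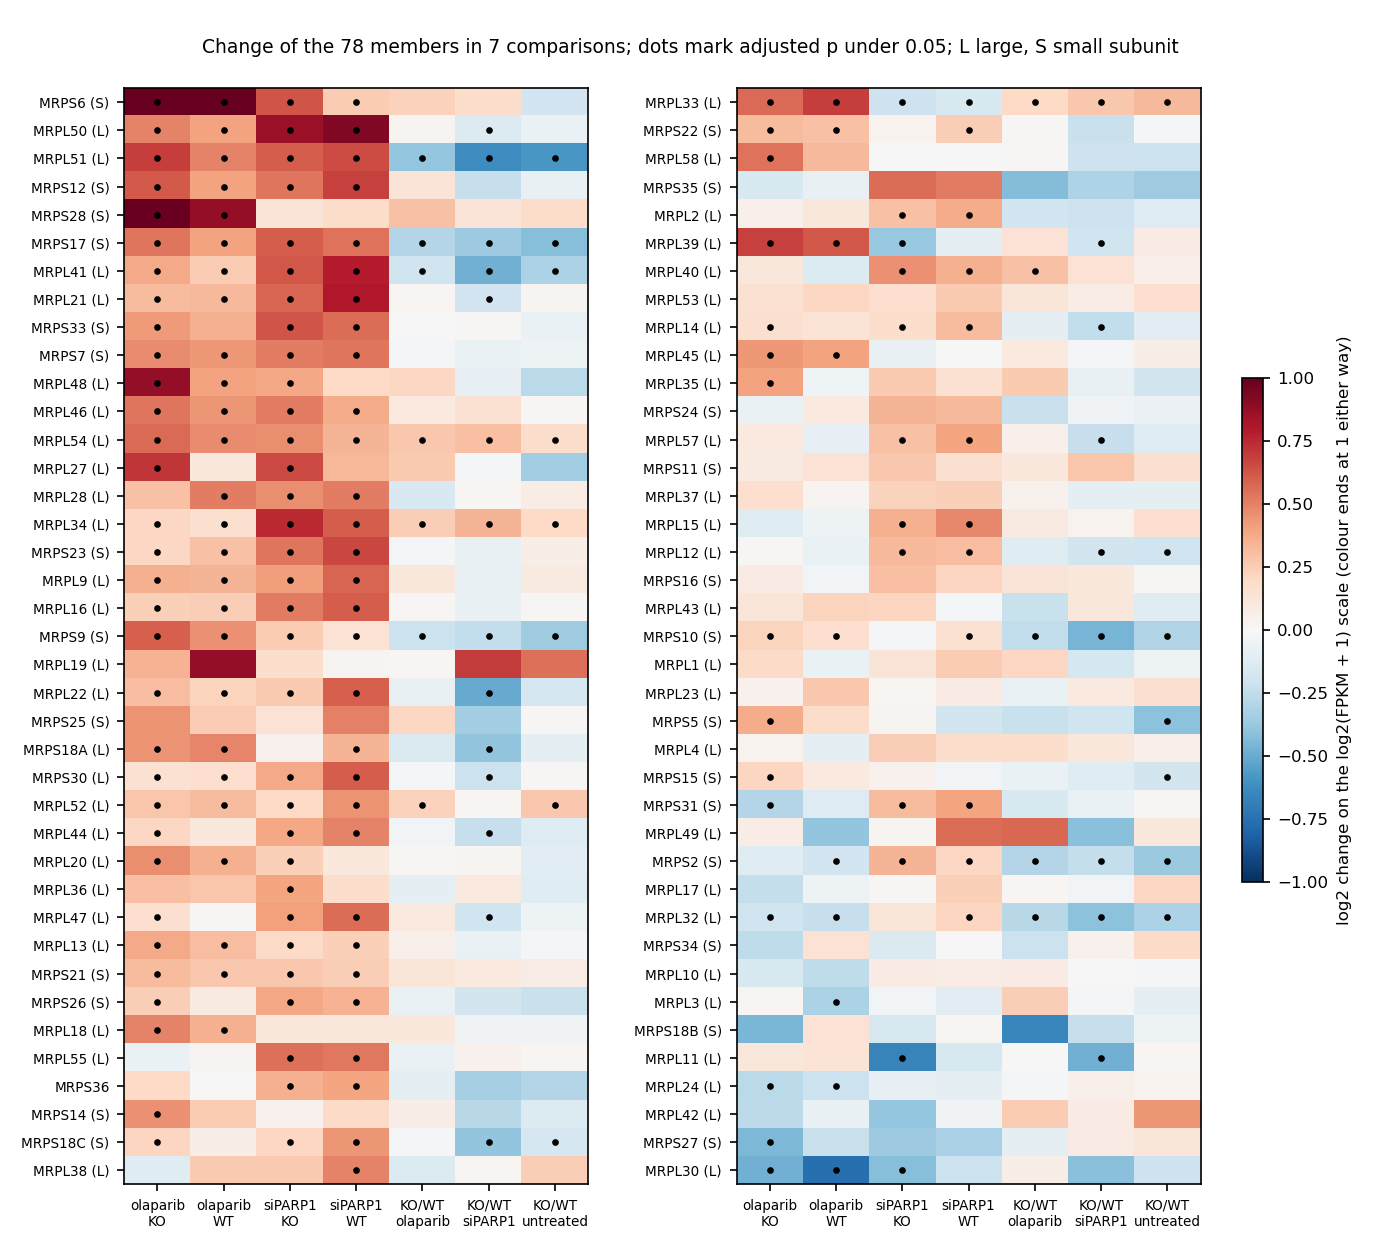
Log2 change of each of the 78 genes in 7 comparisons, as a heat map with genes as rows and comparisons as columns: olaparib and siPARP1 against no treatment in knockout and wild-type cells, and knockout against wild type under each condition. Dots mark an adjusted p under 0.05. The 4 treatment columns are mostly positive, with 42 and 31 genes called higher under olaparib and 40 and 41 under siPARP1 (knockout and wild type), and the knockout columns are mixed.

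The siRNA against PARP1, which targets its RNA rather than the activity of the enzyme, also raised many of the genes. In knockout cells 40 of 78 (51.3%) were higher and 4 lower, against backgrounds of 31.9% and 22.8% of all tested genes. In wild-type cells 41 (52.6%) were higher and 1 lower, against backgrounds of 29.5% and 22.3%. The median log2 change was 0.26 in both, against 0.07 in knockout and 0.072 in wild-type cells over all tested genes. With median-of-ratios scaling the knockout split became 32 higher and 8 lower, and the median 0.17, against 26.6% higher and 27.1% lower of all tested genes and a median of -0.003. The wild-type split became 35 higher and 4 lower with this scaling, and the median 0.18. Of all tested genes 24.4% were then higher and 26.2% lower in wild-type cells, with a median of 0.007. Of the large-subunit genes 27 of 51 were higher in knockout and 26 in wild-type cells, and of the small-subunit genes 12 and 14 of 26. In both genotypes 36 genes were higher, 90% of those in knockout and 87.8% of those in wild-type cells, and of all tested genes 3707, or 73.6% and 79.7%. The changes called higher ran from 0.17 to 0.86 on the log2 scale in knockout and from 0.15 to 0.93 in wild-type cells.

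MRPL50, a large-subunit protein without a bacterial relative, rose most. It measured 12.4, 12.2 and 12.4 FPKM in siPARP1 knockout libraries, against 6.33, 6.35 and 6.32 FPKM in untreated knockout libraries. In wild-type cells it measured 12.9, 14.3 and 13.9 FPKM under siPARP1, against 6.89, 6.69 and 6.51 FPKM untreated. The groups lay far apart beside a narrow spread. The mean was 1.95 times the untreated one in knockout cells, a log2 change of 0.86 (SE 0.046, limma adjusted p = 1.3e-09), and 2.04 times in wild-type cells, a log2 change of 0.93 (SE 0.046, limma adjusted p = 7.5e-10).

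MRPL41, a large-subunit protein without a bacterial relative, reached 26.9, 27.3 and 27.4 FPKM in siPARP1 knockout libraries, against 17.1, 17.99 and 16.9 FPKM untreated, and 38.8, 38.5 and 37.8 FPKM in siPARP1 wild-type libraries, against 21.3, 22.2 and 22.2 FPKM. Its log2 change was 0.62 (SE 0.041, limma adjusted p = 1.09e-08) in knockout and 0.78 (SE 0.041, limma adjusted p = 1.18e-09) in wild-type cells. MRPL34 and MRPL21, both with bacterial relatives, rose as well. The log2 change of MRPL34 was 0.75 (SE 0.061, adjusted p = 1.03e-07) in knockout and 0.61 (SE 0.061, adjusted p = 1.06e-06) in wild-type cells, and that of MRPL21 was 0.59 (SE 0.056, adjusted p = 5.9e-07) and 0.80 (SE 0.056, adjusted p = 2.42e-08). In the small subunit, MRPS6 measured 38.1, 33.4 and 35.4 FPKM in siPARP1 knockout libraries, above the 24.5, 24.5 and 19.5 FPKM of untreated libraries (log2 0.63, SE 0.082, limma adjusted p = 1.49e-05), and rose by a log2 of 0.26 (SE 0.082, adjusted p = 0.0177) in wild-type cells. SLC5A3, the overlapping gene, fell by 1.06 and 0.92 on the log2 scale in knockout and wild-type cells. MRPS23, without a bacterial relative, rose by a log2 of 0.53 (SE 0.055, adjusted p = 1.19e-06) in knockout and 0.67 (SE 0.055, adjusted p = 1.25e-07) in wild-type cells. MRPS12, which sits at the decoding site, rose by 0.53 (SE 0.14, adjusted p = 0.00459) and 0.68 (SE 0.14, adjusted p = 0.000807), though knockout library 3, at 8.12 FPKM, lay within the untreated range.

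MRPS33, a small-subunit protein without a bacterial relative, measured 33.002, 25.2 and 36.8 FPKM in siPARP1 and 19.7, 19.6 and 20.2 FPKM in untreated knockout libraries (log2 0.63, SE 0.16, limma adjusted p = 0.00417). MRPL27 measured 52.9, 53.9 and 50.98 FPKM and 29.6, 36.6 and 33.1 FPKM in the same groups (log2 0.66, SE 0.21, limma adjusted p = 0.0149), and its adjusted p was 0.0555 without untreated library 1. In wild-type cells the log2 change of MRPL27 was 0.33 and did not pass. The genes that fell were fewer. MRPL11, which forms part of the factor-binding region of the large subunit, fell in knockout cells to 15.8, 17.98 and 15.4 FPKM, against 28.2, 26.1 and 25.3 FPKM untreated (log2 -0.67, SE 0.11, limma adjusted p = 0.000153). In wild-type cells MRPL11 measured 20.9, 20.8 and 28.9 FPKM under siPARP1 and 28.5, 24.8 and 25.3 FPKM untreated, groups that overlapped, and its change did not pass (adjusted p = 0.243). PELI3, a low gene that overlaps MRPL11 on the opposite strand, fell in both genotypes, by 0.56 in each on the log2 scale.

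MRPL39 fell in siPARP1 knockout cells to 29.95, 27.9 and 28.1 FPKM, against 36.9, 38.2 and 37.3 FPKM untreated (log2 -0.38, SE 0.053, limma adjusted p = 2.97e-05). In wild-type cells its libraries were at 31.4, 35.6 and 32.02 FPKM under siPARP1 and 34.6, 37.6 and 34.1 FPKM untreated, which overlap, and the log2 change of -0.10 did not pass (adjusted p = 0.128). Under olaparib the same gene had risen in both genotypes. MRPL30 fell in knockout cells to 11.1 ± 2.77 FPKM, against 14.99 ± 1.05 FPKM untreated (SD, n = 3; log2 -0.43, SE 0.17, limma adjusted p = 0.0436). That call was lost without any 1 of the 3 untreated libraries or siPARP1 library 2 or 3 (adjusted p 0.0653 to 0.217).

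**Figure D3:**
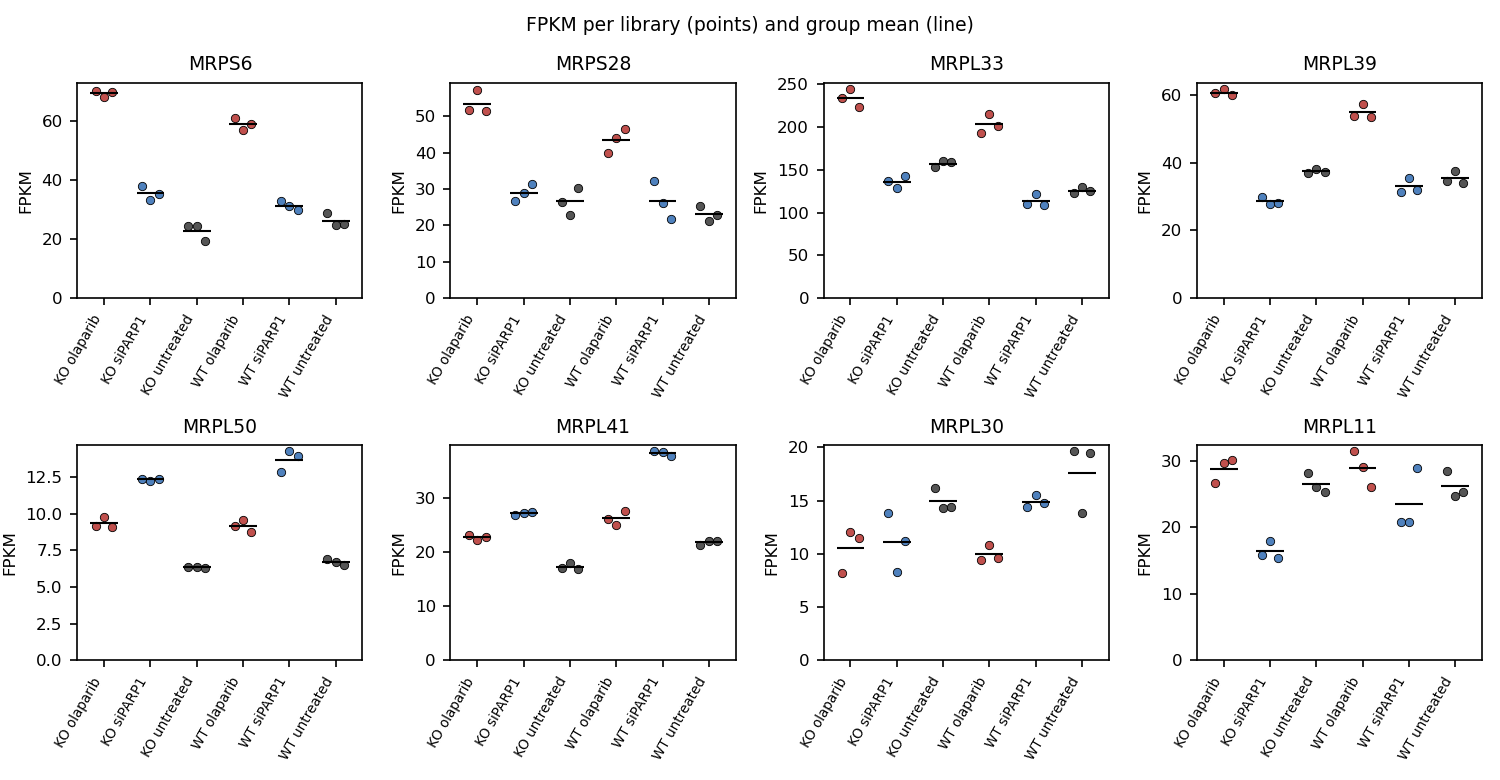
FPKM in each library of 8 of the genes that changed most, by group, with the mean of each group as a line. MRPS6, MRPS28, MRPL33 and MRPL39 are highest under olaparib, and MRPL50 and MRPL41 are highest under siPARP1. In wild-type cells MRPL30 is lowest under olaparib, while in knockout cells its olaparib and siPARP1 libraries overlap. MRPL11 is lowest in siPARP1 knockout cells.

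MRPL33 fell slightly under siPARP1, to 137, 129 and 143 FPKM in knockout libraries, against 153, 159.9 and 159 FPKM untreated (log2 -0.21, SE 0.057, limma adjusted p = 0.00658), and to 110.1, 121 and 108 FPKM in wild-type libraries, against 123, 129.9 and 125 FPKM (log2 -0.15, SE 0.057, limma adjusted p = 0.0373). The wild-type call was lost without untreated library 2 or 3 or siPARP1 library 1 or 3 (adjusted p 0.0659 to 0.133). BABAM2 fell as well, by 0.51 and 0.57 on the log2 scale in knockout and wild-type cells. The transcript table split the gene into unequal parts, which are described here by their values without a test. Its first coding transcript, MRPL33-201, measured 70.4, 64.1 and 77.4 FPKM in siPARP1 knockout libraries, against 97.7, 104 and 101 FPKM untreated. In wild-type libraries MRPL33-201 measured 61.3, 65.1 and 61.3 FPKM under siPARP1, against 82.9, 88.1 and 81.7 FPKM untreated. All of its siPARP1 libraries lay below all untreated libraries of their genotype.

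The second coding transcript, MRPL33-202, went the other way under siPARP1. It measured 56.1, 53.9 and 57.7 FPKM in siPARP1 knockout libraries, against 47.8, 47.98 and 45.8 FPKM untreated, and 43.2, 50.6 and 38.95 FPKM in siPARP1 wild-type libraries, against 33.9, 35.5 and 38.1 FPKM. Neither genotype's groups overlapped. Under olaparib both transcripts were above the untreated level: MRPL33-201 averaged 134 FPKM in knockout and 125 FPKM in wild-type cells, and MRPL33-202 averaged 84.2 FPKM and 67.7 FPKM. How the authors divided reads between transcripts is not stated in the labels, so a value per transcript is less certain than the value of the gene.

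**Figure D4:**
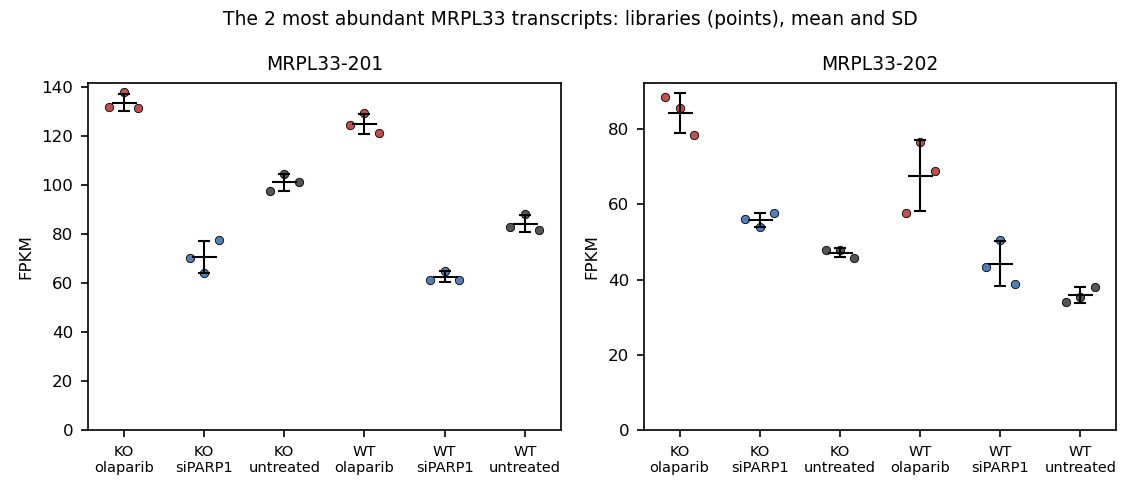
FPKM of the coding transcripts MRPL33-201 and MRPL33-202 in each library, by group, with the mean of each group as a line. Under siPARP1 the first transcript lies below and the second above the untreated libraries of the same genotype, and under olaparib both lie above.

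Olaparib and siPARP1 cells were also set against each other within a genotype, though the treatments differ in agent and in length. In knockout cells 18 genes were higher and 21 lower under olaparib than under siPARP1, against backgrounds of 22.4% and 29.7%. In wild-type cells 11 were higher and 28 lower, against backgrounds of 23.4% and 28.3%, and rescaling to annotated nuclear genes made this 14 and 22, against 25.8% and 24.7% of all tested genes. The median log2 difference was -0.06 in knockout cells, or 0.004 with median-of-ratios scaling, and -0.20 in wild-type cells, against -0.061 and -0.051 over all tested genes. MRPL39 differed most in knockout cells, by a log2 of 1.06 (SE 0.053, limma adjusted p = 5.96e-10), followed by MRPS6 at 0.94 (SE 0.082, adjusted p = 2.37e-07) and MRPS28 at 0.86 (SE 0.13, adjusted p = 4.55e-05). In wild-type cells the largest positive differences called were MRPS6 at 0.89 (SE 0.082, adjusted p = 4.86e-07), MRPL33 at 0.84 (SE 0.057, adjusted p = 1.65e-08) and MRPL39 at 0.72 (SE 0.053, adjusted p = 4.38e-08).

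Among the genes lower under olaparib than under siPARP1 were MRPS31, MRPL34 and MRPL55 in knockout cells and MRPL47, MRPL30 and MRPS35 in wild-type cells. MRPS31 measured 12.1, 11.2 and 11.8 FPKM in olaparib-treated knockout libraries, against 19.02, 17.9 and 18.02 FPKM under siPARP1 (log2 -0.61, SE 0.059, limma adjusted p = 7.57e-07). MRPL55 differed by a log2 of -0.61 (SE 0.15, adjusted p = 0.00324) and MRPL34 by -0.54 (SE 0.061, adjusted p = 3.3e-06). MRPL47 measured 28.4, 30.01 and 27.7 FPKM in olaparib-treated wild-type libraries, against 42.5, 41.2 and 43.05 FPKM under siPARP1 (log2 -0.54, SE 0.061, limma adjusted p = 3.61e-06). MRPL30 differed there by a log2 of -0.54 (SE 0.17, adjusted p = 0.0147). MRPS35 measured 40.7, 40.8 and 41.6 FPKM and 46.4, 73.5 and 71.3 FPKM in these groups (log2 -0.59, SE 0.23, limma adjusted p = 0.0456), and its call was lost without any 1 of the olaparib libraries or siPARP1 library 2 or 3 (adjusted p 0.0843 to 0.151).

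Fewer of the genes were called between knockout and wild-type cells. Under olaparib the shares lay near the background: 5 (6.41%) were higher and 7 (8.97%) lower in knockout cells, against backgrounds of 5.68% and 7.16%. Under siPARP1 3 were higher and 20 lower, against backgrounds of 11.8% and 11.2%, so that 25.6% of the 78 genes were lower. Without treatment 4 were higher and 11 lower, against backgrounds of 9.58% and 10.9%, and 14.1% of the genes were lower. The median log2 difference was 0.01 under olaparib, -0.07 under siPARP1 and -0.05 without treatment, against -0.01, -0.001 and -0.009 over all tested genes. The 3 comparisons use different libraries. MRPL33, MRPL34 and MRPL54 were higher and MRPL32, MRPL41, MRPL51, MRPS2, MRPS9, MRPS10 and MRPS17 lower in knockout cells in all 3 conditions, where 439 of all tested genes (2.78%) were higher and 508 (3.22%) lower throughout.

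MRPL51 was among the largest of these differences. It measured 116, 128 and 122 FPKM in knockout and 157, 155 and 167 FPKM in wild-type libraries under olaparib, a log2 difference of -0.39 (SE 0.1, limma adjusted p = 0.022). Under siPARP1 it measured 96.7, 124 and 124 FPKM in knockout and 177, 178 and 178 FPKM in wild-type libraries (log2 -0.63, SE 0.1, limma adjusted p = 0.00045). Without treatment the values were 85.6, 72.4 and 67.8 FPKM in knockout and 127, 109 and 103 FPKM in wild-type libraries (log2 -0.58, SE 0.1, limma adjusted p = 0.000924). No knockout library reached a wild-type library of its condition. The olaparib call was lost without library 1 or 3 of either genotype (adjusted p 0.0502 to 0.0804). Its overlapping gene NCAPD2 was lower in knockout cells too: it fell by 0.25, 0.43 and 0.37 on the log2 scale under olaparib, under siPARP1 and without treatment.

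MRPS10, a small-subunit protein with a bacterial relative, separated the genotypes with little spread. It measured 33.8, 36.1 and 33.9 FPKM in knockout and 41.1, 41.9 and 40.5 FPKM in wild-type libraries under olaparib (log2 -0.24, SE 0.036, limma adjusted p = 0.000338), and 28.9, 29.1 and 29.6 FPKM and 40.3, 40.1 and 41.8 FPKM under siPARP1 (log2 -0.47, SE 0.036, limma adjusted p = 4.25e-07). Untreated knockout libraries were at 29.4, 29.2 and 29.8 FPKM and untreated wild-type libraries at 36.9, 36.04 and 36.9 FPKM (log2 -0.30, SE 0.036, limma adjusted p = 2.77e-05). MRPL41 was at 26.9, 27.3 and 27.4 FPKM in knockout and 38.8, 38.5 and 37.8 FPKM in wild-type libraries under siPARP1 (log2 -0.48, SE 0.041, limma adjusted p = 1.31e-06). Its log2 difference was -0.20 (SE 0.041, adjusted p = 0.00498) under olaparib and -0.32 (SE 0.041, adjusted p = 6.06e-05) without treatment. MRPS17, another small-subunit protein, differed by -0.29 (SE 0.057, adjusted p = 0.00331) under olaparib, -0.36 (SE 0.057, adjusted p = 0.000368) under siPARP1 and -0.42 (SE 0.057, adjusted p = 0.000101) without treatment. NIPSNAP2, which overlaps MRPS17 on the same strand, passed in none of the 3. Its differences were -0.08, -0.22 and -0.15 in the same order, each with an SE of 0.28. A difference as large as that of MRPS17 could thus have been missed.

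MRPS9 differed by a log2 of -0.22 (SE 0.051, adjusted p = 0.00992) under olaparib, -0.25 (SE 0.051, adjusted p = 0.00261) under siPARP1 and -0.36 (SE 0.051, adjusted p = 0.000155) without treatment. For MRPL32, a large-subunit protein whose maturation is known to need the inner-membrane m-AAA protease, the differences were -0.28 (SE 0.052, adjusted p = 0.00228), -0.41 (SE 0.052, adjusted p = 6.5e-05) and -0.31 (SE 0.052, adjusted p = 0.000622). For MRPS2 they were -0.29 (SE 0.07, adjusted p = 0.0127), -0.24 (SE 0.07, adjusted p = 0.0249) and -0.37 (SE 0.07, adjusted p = 0.00175), and the olaparib call was lost without knockout library 1 or 2 or wild-type library 2 (adjusted p 0.0524 to 0.0635). Untreated MRPS5 was at 11.6, 11.2 and 10.4 FPKM in knockout and 15.2, 15.1 and 15.003 FPKM in wild-type libraries (log2 -0.41, SE 0.083, limma adjusted p = 0.00251). The listed transcripts of MRPS5 add up to 62.1% of its gene value, and their sums did not pass (adjusted p = 0.176). Under siPARP1, MRPL22, which lines the exit tunnel, measured 20.8, 21.7 and 21.97 FPKM in knockout and 29.3, 31.4 and 31.7 FPKM in wild-type libraries (log2 -0.50, SE 0.067, limma adjusted p = 8.9e-05). MRPL11 differed there by -0.48 (SE 0.11, adjusted p = 0.00647). The other genes lower in knockout cells under siPARP1 were MRPL12, MRPL14, MRPL21, MRPL39, MRPL44, MRPL47, MRPL50, MRPL57, MRPS18A, MRPS18C and MRPS30, and those lower without treatment were MRPL12, MRPS15 and MRPS18C. Among these, the smallest difference called was -0.14 (SE 0.046, adjusted p = 0.0446), for MRPL50 under siPARP1.

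The genes called higher in knockout cells had smaller differences than MRPL51. MRPL33 measured 234, 245 and 224 FPKM in knockout and 193, 216 and 201 FPKM in wild-type libraries under olaparib (log2 0.20, SE 0.057, limma adjusted p = 0.0301), with differences of 0.27 (SE 0.057, adjusted p = 0.0036) under siPARP1 and 0.32 (SE 0.057, adjusted p = 0.000986) without treatment. The olaparib call was lost without library 1 or 2 of knockout or library 1 or 3 of wild-type cells (adjusted p 0.0741 to 0.124). BABAM2, which overlaps MRPL33 on the same strand, was higher in knockout cells under olaparib, by 0.43 (SE 0.075, limma adjusted p = 0.00131). It was also higher under siPARP1, by 0.23 (SE 0.075, adjusted p = 0.0368). Without treatment its difference of 0.18 (SE 0.075, adjusted p = 0.106) did not pass. MRPL34 differed by 0.24 (SE 0.061, adjusted p = 0.0152) under olaparib, 0.34 (SE 0.061, adjusted p = 0.000981) under siPARP1 and 0.20 (SE 0.061, adjusted p = 0.0322) without treatment. Its olaparib call was lost without knockout library 1 or 2 or wild-type library 1 (adjusted p 0.0531 to 0.0648), and its untreated call without knockout library 1 or 2 or wild-type library 2 or 3 (adjusted p 0.0555 to 0.1345). MRPL54 differed by 0.27 (SE 0.06, adjusted p = 0.00732), 0.30 (SE 0.06, adjusted p = 0.00203) and 0.18 (SE 0.06, adjusted p = 0.0497), and its untreated call was lost without any 1 of the 6 libraries (adjusted p 0.0522 to 0.184). MRPL52 was at 30.8 ± 1.39 FPKM in knockout and 26.1 ± 0.993 FPKM in wild-type cells under olaparib and at 25.2 ± 1.34 FPKM and 20.7 ± 1.28 FPKM without treatment (SD, n = 3), differences of 0.23 (SE 0.053, adjusted p = 0.00943) and 0.27 (SE 0.053, adjusted p = 0.00208). MRPL40 was higher in knockout cells under olaparib, by 0.29 (SE 0.054, adjusted p = 0.00201).

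Genes lying near these ones on the chromosome mostly differed between the genotypes in the same direction. Around each gene the median log2 difference of the other tested genes in its 10 Mb bin was taken. Under olaparib it had the sign of the gene's own difference for 7 of 7 lower and 4 of 5 higher genes, under siPARP1 for 15 of 20 and 3 of 3, and without treatment for 11 of 11 and 4 of 4. These counts cover the called genes only, and some of those share a bin and so are not separate cases. The same share was not taken for the uncalled genes or for all tested genes, so the counts do not set the called genes apart from the others. The bin of MRPL51 on chromosome 12 had medians of -0.27 under olaparib, -0.25 under siPARP1 and -0.26 without treatment. For MRPS9 on chromosome 2 they were -0.25, -0.19 and -0.24, and for MRPL41 and MRPS2, which share a bin on chromosome 9, -0.19, -0.20 and -0.18. MRPL54 and MRPL34 on chromosome 19 lay among genes with medians of 0.09 and 0.09 under olaparib, 0.21 and 0.19 under siPARP1 and 0.15 and 0.15 without treatment. In a further fit the median deviation of each bin was removed from its genes, library by library. This median included the gene itself, and only bins of at least 20 tested genes were adjusted. With bin medians removed in this way, 2 genes were called under olaparib, 14 under siPARP1 and 7 without treatment, against 7.02%, 14.5% and 14.4% of all tested genes. The 2 under olaparib, MRPL40 and MRPL52, were higher in knockout cells, and none of the 7 lower genes passed. In MRPL51 the adjusted p was then 0.639 under olaparib and 0.0823 without treatment, and in MRPS9 it was 0.467 without treatment. Under siPARP1 the calls of MRPL51, MRPL22, MRPL41 and MRPS10 stayed, and those of MRPL33, MRPL34 and MRPL54 were lost. Without treatment MRPS17 and MRPL33 kept their calls, and MRPL34, MRPL54, MRPS2 and MRPS5 lost theirs. Copy number was not measured here.

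**Figure D5:**
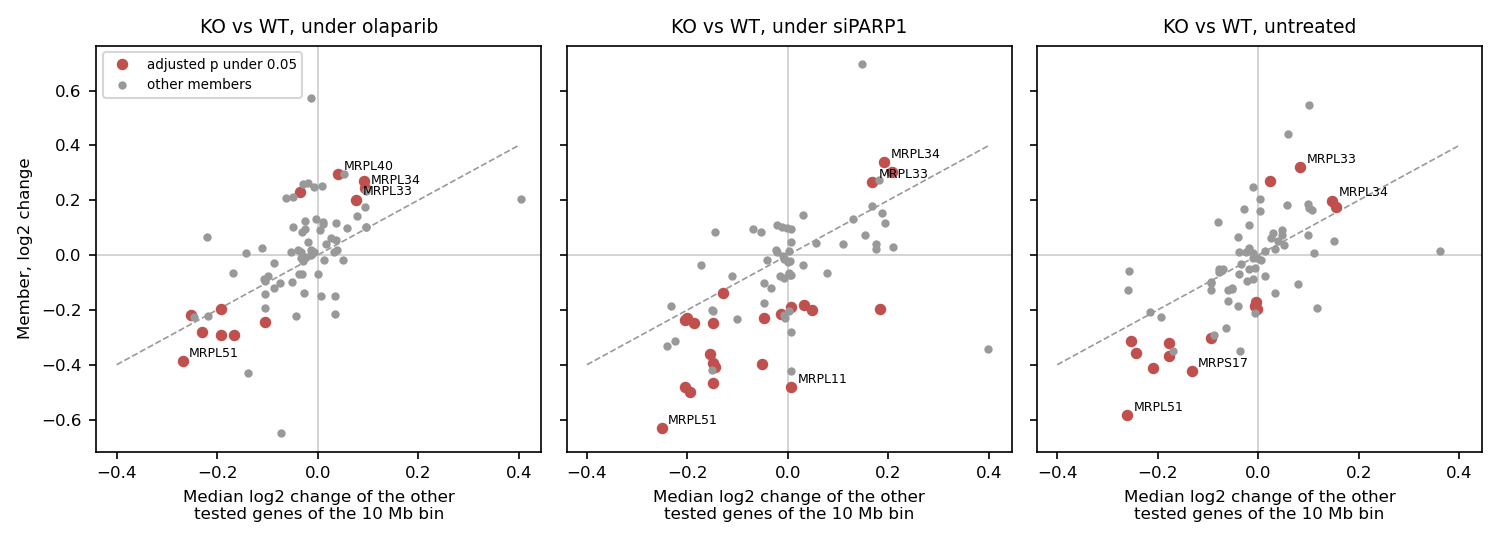
Log2 difference between knockout and wild-type cells of each of the 78 genes (vertical axis) against the median log2 difference of the other tested genes in its 10 Mb bin (horizontal axis), under olaparib, under siPARP1 and without treatment. MRPL51, MRPS9, MRPL32 and MRPL41 lie at the lower left and MRPL33, MRPL34 and MRPL54 at the upper right in all 3 conditions.

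Whether a treatment acted differently on knockout than on wild-type cells was tested with an interaction in limma. For olaparib no gene of the 78 passed, against 3.06% of all tested genes in either direction. At an unadjusted p under 0.05 there were 6 of 78 (7.69%), against 16% of all tested genes. MRPS6 came nearest, with a log2 change larger by 0.43 in knockout cells (SE 0.12, limma adjusted p = 0.0673). For siPARP1, 2 genes passed, both with a lower log2 change in knockout cells, against backgrounds of 5.26% in either direction and 2.52% in that one. MRPS18A, a large-subunit protein despite its symbol, had an interaction of -0.30 (SE 0.079, limma adjusted p = 0.0437), and MRPL39 one of -0.28 (SE 0.075, adjusted p = 0.0489). MRPS18A measured 19.2, 18.1 and 18.6 FPKM under siPARP1 and 18.3, 18.9 and 16.9 FPKM without treatment in knockout libraries. In wild-type libraries it measured 23.2, 24.1 and 27.1 FPKM under siPARP1 and 18.99, 20.1 and 18.9 FPKM without treatment. The knockout groups overlapped and the wild-type groups did not. Of the 12 libraries in the interaction, leaving out 1 of 9 ended the call of MRPS18A (adjusted p 0.0558 to 0.0982): knockout untreated 1 and 2, knockout siPARP1 1, 2 and 3, wild-type untreated 1 and 3, and wild-type siPARP1 2 and 3. For MRPL39 the 9 were the 3 untreated knockout libraries, knockout siPARP1 2 and 3, wild-type untreated 1 and 3, and wild-type siPARP1 2 and 3 (adjusted p 0.0624 to 0.112).

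MRPS18A, MRPS18B and MRPS18C are related copies of an ancestral bacterial protein. MRPS18C was lower in knockout cells under siPARP1, at 25.6, 24.1 and 24.7 FPKM, against 32.5, 32.96 and 33.5 FPKM in wild-type libraries (log2 -0.40, SE 0.047, limma adjusted p = 3.17e-05), and without treatment, by -0.17 (SE 0.047, adjusted p = 0.0197). MRPS18A was also lower there under siPARP1 (log2 -0.39, SE 0.056, adjusted p = 0.000149). MRPS18A rose under olaparib by 0.45 (SE 0.056, adjusted p = 1.3e-05) in knockout and 0.49 (SE 0.056, adjusted p = 5.46e-06) in wild-type cells. MRPS18B passed in none of the comparisons.

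The partners of these proteins were read from lists of other mitochondrial genes. As backgrounds, 25.2% of all tested genes were higher and 22% lower under olaparib in knockout cells, and 31.9% and 22.8% under siPARP1. In wild-type cells the backgrounds were 24.9% and 20.4% under olaparib and 29.5% and 22.3% under siPARP1. Of the 5 mitoribosome subunits that carry other symbols, 2 were higher under olaparib and 4 under siPARP1 in knockout cells, and 3 and 4 in wild-type cells, with none lower. CHCHD1 measured 33.2 ± 1.80 FPKM under olaparib and 35.9 ± 1.94 FPKM under siPARP1 in knockout cells, against 24.8 ± 1.00 FPKM untreated (SD, n = 3). Its log2 change was 0.41 (SE 0.067, limma adjusted p = 0.000158) under olaparib and 0.51 (SE 0.067, adjusted p = 1.32e-05) under siPARP1. PTCD3 rose by 0.66 (SE 0.057, adjusted p = 2.15e-07) in knockout and 0.70 (SE 0.057, adjusted p = 1.19e-07) in wild-type cells under siPARP1. Of 30 assembly and ribosomal RNA modification factors, 11 were higher and 5 lower under olaparib and 17 higher and 1 lower under siPARP1 in knockout cells. In wild-type cells 8 were higher and 3 lower under olaparib, and 13 higher and 3 lower under siPARP1. FASTKD5, a mitochondrial RNA-processing protein, reached 12.1 ± 0.274 FPKM in siPARP1 knockout cells, against 4.92 ± 0.211 FPKM untreated (log2 1.15, SE 0.14, limma adjusted p = 5.95e-06). NOA1, a GTPase of mitoribosome assembly, fell under both treatments in both genotypes, by 0.54 and 0.45 on the log2 scale in knockout and by 0.45 and 0.37 in wild-type cells.

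Of 17 mitochondrial translation factors, 8 were higher under each treatment in each genotype, and 1 or 2 lower. The elongation factor TUFM rose under olaparib by 0.37 (SE 0.12, limma adjusted p = 0.0209) in knockout and 0.40 (SE 0.12, adjusted p = 0.0151) in wild-type cells, while the release factor homologue MTRFR fell by 0.46 and 0.26 on the log2 scale. Of 15 genes of mitochondrial transcription and DNA maintenance, 13 in knockout and 14 in wild-type cells were higher under siPARP1, with none lower. TFB2M, a mitochondrial transcription factor, rose under siPARP1 by 0.78 (SE 0.045, limma adjusted p = 2.6e-09) and 0.81 (SE 0.045, adjusted p = 2.04e-09). Under olaparib the same list had 7 higher and 1 lower in knockout cells and 5 higher and 2 lower in wild-type cells, and POLRMT, the mitochondrial RNA polymerase, was lower in both, by a log2 of -0.33 (SE 0.064, adjusted p = 0.000679) and -0.32 (SE 0.064, adjusted p = 0.000898). The 13 coding genes of the mitochondrial genome were all higher under each treatment in knockout cells, and 9 were higher under olaparib and 12 under siPARP1 in wild-type cells. Of 81 cytosolic ribosomal protein genes tested, 6 were higher and 27 lower under olaparib and 21 higher and 9 lower under siPARP1 in knockout cells. In wild-type cells the counts were 5 and 19 under olaparib and 27 and 8 under siPARP1. Backgrounds for the lists of this paragraph were 25.2% higher and 22% lower under olaparib in knockout cells, and 31.9% and 22.8% under siPARP1. For wild-type cells they were 24.9% and 20.4%, and 29.5% and 22.3%. The cytosolic genes called higher under siPARP1 thus lay near the background.

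Regulators of mitochondrial gene expression went both ways. Backgrounds for the lists of this paragraph were again 25.2% higher and 22% lower under olaparib in knockout cells, and 31.9% and 22.8% under siPARP1. For wild-type cells they were 24.9% and 20.4%, and 29.5% and 22.3%. Of 9 listed genes 8 were tested, with 2 higher and 2 lower under olaparib and 3 higher and 2 lower under siPARP1 in knockout cells, and 1 higher and 2 lower, and 3 higher and 2 lower, in wild-type cells. GABPB1, a subunit of the ETS-family activator GABP, fell under olaparib to 4.93 ± 0.623 FPKM in knockout cells, against 8.54 ± 0.573 FPKM untreated (SD, n = 3; log2 -0.69, SE 0.085, limma adjusted p = 1.19e-05), and to 5.04 ± 0.569 FPKM in wild-type cells, against 10.4 ± 0.265 FPKM (log2 -0.92, SE 0.085, limma adjusted p = 6.93e-07). GABPB1 was also called lower under siPARP1 in both genotypes. GABPA, its DNA-binding partner, changed under olaparib by -0.21 (SE 0.063, adjusted p = 0.012) in knockout cells and under siPARP1 by 0.27 (SE 0.063, adjusted p = 0.00234) in wild-type cells. NRF1 was called higher under olaparib in wild-type cells and lower under siPARP1 in both genotypes. The nuclear receptor ESRRA rose under siPARP1 by 0.82 (SE 0.11, adjusted p = 1.43e-05) in knockout and 0.52 (SE 0.11, adjusted p = 0.000915) in wild-type cells, and the coactivator PPARGC1B by 0.91 (SE 0.076, adjusted p = 1.46e-07) and 0.46 (SE 0.076, adjusted p = 0.000159). MYC and YY1 varied widely between libraries and passed in none of the treatment comparisons. Of 18 import and inner-membrane protease genes, 8 were higher and 4 lower under olaparib and 9 higher and 4 lower under siPARP1 in knockout cells, and 6 and 4, and 7 and 4, in wild-type cells. Among genes with the ETS core in the promoter, 19 of 29 were higher under olaparib and 17 of 29 under siPARP1 in knockout cells, and 14 and 18 in wild-type cells. Without it the counts were 19 and 18 of 40 in knockout and 14 and 18 of 40 in wild-type cells. With the YY1 motif 7 of 13 were higher under olaparib and 6 under siPARP1 in knockout cells. In wild-type cells 7 and 9 of 13 were. Without it the counts were 31 and 29 of 56 in knockout and 21 and 27 of 56 in wild-type cells. No test was made of either split.

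The values of some genes are less certain than others. Within groups the median SD was 0.11 on the log2 scale for the 78 genes, against 0.136 for all tested genes, but 9 exceeded 0.3 (11.5%, against 11.5% of all tested genes). These were MRPL49, MRPL42, MRPL19, MRPL53, MRPL10, MRPS16, MRPS18B, MRPS25 and MRPS35. MRPL51 was not among them, although some of its coding transcripts were uneven between libraries of a group. Pseudogenes named after 36 of the 78 genes had 79 rows of their own, of which 4 averaged 1 FPKM or more, with 2.65 FPKM as the highest mean. A tested gene overlapped 33 of the 78, on the same strand for 11 and on the opposite strand for 25. Without the strand setting, not stated in the labels, reads of opposite-strand neighbours cannot be told apart. Sums of the listed transcripts lay within 1% of the gene value for 74 genes, all but MRPS27, MRPS25, MRPS5 and MRPS22.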

How the data were processed

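RNA from 18 libraries of MDA-MB-231 cells was sequenced after oligo(dT) selection, per the labels' protocols. The authors deposited FPKM per gene and per transcript. Per the submitters' processing notes, StringTie 2.2.1, featureCounts 2.0.3, HISAT2 2.2.1, DESeq2 1.38.3 and fastp 0.23.2 were named with the build GRCh38, without saying which tool made which value. Absolute depth is unknown; relative depth, 0.749 to 1.24 times that of wild-type library 1, was read from the steps between values under 0.05 FPKM, so a fold change of a gene at a few FPKM is the less precise.

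Groups were taken from the labels. Genes that reached 1 FPKM in 3 or more libraries (15764) were fitted with limma 3.58.1 in R 4.3.3 as log2(FPKM + 1), 1 fit for 6 groups with a trended prior and 12 residual degrees of freedom, and p-values were adjusted by Benjamini-Hochberg over all tested genes in each of 11 comparisons. Fold changes on this scale understate those of low genes. Scripts were tested on simulated data. Gene positions are from GENCODE 29 on GRCh38. The genes described with values were, in each treatment or genotype comparison, up to 5 with the largest change called in each direction whose libraries did not overlap (3 between olaparib and siPARP1, in an interaction and in the other lists), the 5 highest and 3 lowest genes, and the MRPS18 copies. Overlapping genes, promoters shown and the remaining genes were chosen after their values were seen. The 78 genes and all lists were chosen with earlier results of these data known. Alternatives were another pseudocount, no filter, median-of-ratios and nuclear scaling, transcript sums, a replicate block, the compared groups alone, a constant prior, removal of 10 Mb bin medians, and leaving out each library. Python 3.11.15 with numpy 2.4.6, pandas 2.3.3 and matplotlib 3.10.9 made the summaries and figures.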

Additional observations from a re-analysis of the deposited data

Results flagged for a closer look

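By the limma interaction test, 2 of the 78 genes (2.56%) had a lower log2 change under siPARP1 in knockout than in wild-type cells, near the 2.52% of all tested genes called in that direction. For MRPS18A the log2 change was 0.05 in knockout cells and 0.34 in wild-type cells, a difference of -0.30 (adjusted p = 0.0437). For MRPL39 it was -0.38 in knockout cells and -0.10 in wild-type cells, a difference of -0.28 (adjusted p = 0.0489). Each call was lost in 6 other settings and on leaving out any 1 of 9 libraries. The adjusted p was then 0.0524 to 0.1225 in other settings and 0.0558 to 0.0982 without a library for MRPS18A, and 0.0522 to 0.116 and 0.0624 to 0.112 for MRPL39. Removal of bin medians was among those settings for MRPL39, although its own bin was too small to be adjusted (difference -0.28, limma adjusted p = 0.069).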

How the results depend on the processing

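Of 75 named results, 44 stayed past the threshold in all alternatives run, 31 were lost in at least 1 and 0 reversed. Calls were lost for 19 with bin medians removed, 17 without a library, 14 with the compared groups alone, 12 without the filter, 5 with the replicate block, 4 with nuclear scaling, 3 with a constant prior and 1 each with transcript sums, median-of-ratios scaling and pseudocount 0.1; the cause was not tested.

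Between knockout and wild type, the 12 genes called under olaparib became 2 with bin medians removed and 6 with the compared groups alone (8 to 11 without a library), the 23 under siPARP1 became 14 with bin medians removed (18 to 22 without a library), and the 15 without treatment became 7 and 9 in these settings (11 to 14 without a library). The siPARP1 interaction, with 2 genes, gave 1 with bin medians removed or pseudocount 0.1, 0 with a constant prior, no filter, the compared groups alone or nuclear scaling, and 0 to 5 without a library, with 5 only without untreated wild-type library 2. The olaparib interaction, with 0 genes, gave 1 with the replicate block (MRPS6, 0.43, adjusted p = 0.0379) and 0 to 0 without a library. Leaving out a library gave 39 to 45 genes for olaparib in knockout cells (47 with all) and 29 to 35 in wild-type cells (36), 39 to 45 for siPARP1 in knockout cells (44) and 35 to 44 in wild-type cells (42), and 34 to 37 in knockout cells (39) and 33 to 36 in wild-type cells (39) between the treatments.

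Libraries with the same number correlated at -0.063 to 0.074 in their deviations from group means, none over 0.1, so the numbers were not taken to pair them, and the replicate block moved no other count of calls by over 1.5 times. Absolute depth is unknown, so counting error could not be given.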
